A study of Mus musculus with 2 samples.

Results

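In a library of hematopoietic stem cells (HSCs) from 10-week-old mice, 733 of 4887 cells were set apart. They had the highest shares of fragments in chromatin that was more open in HSCs of 20-month-old mice, read on odd-numbered autosomes. They are called high-score young HSCs here, and the remaining 4154 young cells are called the other young HSCs. The 20-month library gave 3405 cells, so that 8292 cells were studied in all. The cells were chosen by a score read from odd-numbered autosomes only. Bins of 500 bp that held at least 100 fragments over both libraries, and whose share of fragments was at least 2 times higher in the 20-month library, were taken as score bins. There were 1645 such bins among 78438 accessible odd-autosome bins, an accessible bin being one with at least 100 fragments. The score of a cell is the percentage of its fragments that fell in score bins, and the highest 15% of the young cells were taken. The comparisons below were read from the even-numbered autosomes, which the score did not use, except for 3 marker genes on odd autosomes that are given as a description.

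Both libraries were single-cell ATAC-seq, in which a transposase cuts open chromatin and each recovered fragment carries the barcode of its nucleus. Bone marrow of C57BL/6 mice was sorted for cells that were Sca-1+, c-kit+ and CD150+ and that lacked lineage markers, IL-7, CD34, CD48 and Flt3 (IL-7 as the labels spell it). The groups differed in the labels by age alone, 10 weeks for young and 20 months for aged. The study's methods describe female mice, and the labels do not give how many animals entered either library. With 1 library per age, age and library cannot be told apart, cells of 1 library are not replicates, and no test was possible. Every 95% interval below therefore covers counting error only. The cells within the limits on in-peak fragments, 3000 to 20000, held 50069575 fragments for the young HSCs and 38663214 for the aged HSCs.

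HSCs sit at the top of blood formation, and most of them are quiescent. With age they grow in number, give rise to fewer lymphocytes, and favour platelet and myeloid output. Their chromatin changes mainly at enhancers, the distal elements that transcription factors bind, and the opening of an element need not come with a change in the expression of its gene. Clu (clusterin, a secreted chaperone) and Selp (P-selectin, an adhesion receptor) are known as genes raised in aged HSCs. Mecom (a transcription factor of stem cell self-renewal) and Slamf1 (CD150, used in the sort) mark HSCs.

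The score that chose the cells is given as a description. Its median was 0.317% of fragments in the high-score cells (range 0.270% to 0.721%), 0.165% in the other young HSCs and 0.519% in the aged HSCs. The scores of young cells formed 1 continuous range. The 5 cells just inside the limit scored from 0.2699% to 0.27% and the 5 just outside from 0.2692% to 0.2698%. The high-score cells stayed below most aged cells: 12 of the 733 reached the aged median, and 80 (10.9%) reached the aged lower quartile. Conversely, 95.3% of the aged cells scored at or above the lowest high-score cell.

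The 4 marker genes were read over the gene body with 2 kb upstream, as fragments per 10000 in accessible even-autosome bins. Clu, on even chromosome 14, had 1.56 in the high-score cells, 1.14 in the other young HSCs and 1.66 in the aged HSCs, which is a ratio of 1.37 (95% interval 1.21 to 1.54) between the young groups. The other markers lie on odd autosomes, which the score used, and are a description. Slamf1 had 1.60, 1.07 and 1.52 in the same order, and Mecom had 20.8, 18.9 and 21.2. Selp had 1.99 in the high-score cells, 2.06 in the other young HSCs and 2.59 in the aged HSCs. Of the markers known from aging, Clu thus lay toward the level of the aged HSCs, and Selp did not, with a ratio of 0.965 (0.867 to 1.07) where the aged HSCs were at 1.26. The label of aging-like chromatin therefore did not extend to Selp.

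Some of the even-autosome sequences that the results turn on are shown first, as mm10 reference sequence (GRCm38, plus strand, RefSeq) around the centre of each element, with matches to the searched transcription factor motifs in capitals. The first is the gained region with the highest ratio of high-score to other young cells among those with at least 200 young fragments, at chr6:76387628-76387827. The nearest protein-coding start, that of Gm9008, lies 110284 bp away and only gives the region its name. The next is in an intron of Ank3 at chr10:69611819-69612018, and the third lies in the intergenic stretch near Spry2, 129569 bp from its start, at chr14:105767198-105767397. None of these windows overlaps an annotated exon.
near Gm9008: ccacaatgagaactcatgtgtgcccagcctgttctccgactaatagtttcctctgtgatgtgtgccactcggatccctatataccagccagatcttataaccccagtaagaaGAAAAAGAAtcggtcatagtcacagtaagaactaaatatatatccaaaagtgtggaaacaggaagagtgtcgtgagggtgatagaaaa
Ank3 intron: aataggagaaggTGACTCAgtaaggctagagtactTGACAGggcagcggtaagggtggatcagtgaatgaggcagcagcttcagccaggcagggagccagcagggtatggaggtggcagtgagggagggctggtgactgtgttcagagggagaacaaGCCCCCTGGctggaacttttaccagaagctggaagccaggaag
near Spry2: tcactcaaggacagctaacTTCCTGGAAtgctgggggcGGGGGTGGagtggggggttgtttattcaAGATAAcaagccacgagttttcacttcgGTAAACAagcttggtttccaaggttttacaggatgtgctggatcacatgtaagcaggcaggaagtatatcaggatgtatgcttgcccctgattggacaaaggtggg
In the first the capitals mark 1 IRF match. In the second they mark an AP-1, a MEIS and a CTCF match in that order, and in the third a STAT, a KLF, a GATA and a FOX match in that order. The element inside Clu is shown only by 2 stretches of 30 bp with a match, at chr14:65970701-65970730 (GATA) and chr14:65970791-65970820 (CEBP). Another stretch, with a STAT match, at chr14:65970810-65970839, overlaps the CEBP stretch and is not printed.
Clu, GATA: gttggtgagcccAGATAAgctattctgggc
Clu, CEBP: tgtgtgtgtgtTTATGCAAccaatccagct
An element that closes in the high-score cells, in an intron of Rrp1 at chr10:78406226-78406425, carries a PU.1 and then an E2A match.
Rrp1 intron: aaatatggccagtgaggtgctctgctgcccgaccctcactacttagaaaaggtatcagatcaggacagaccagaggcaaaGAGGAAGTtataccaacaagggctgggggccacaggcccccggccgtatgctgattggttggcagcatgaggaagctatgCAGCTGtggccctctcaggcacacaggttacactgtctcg

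In the bins gained with age on even autosomes, the high-score young HSCs lay between the other young HSCs and the aged HSCs. These held-out gained bins were defined as the score bins were, and 1461 of 65265 accessible even-autosome bins (2.24%) qualified. They took 90.5 fragments per 10000 in the high-score cells (89.2 to 91.8), 53.6 in the other young HSCs (53.2 to 54.0) and 162.5 in the aged HSCs. The ratio of high-score to other young cells was 1.69 (1.66 to 1.72), which covered 33.9% of the distance from the other young HSCs to the aged HSCs. The bins lost with age, 419 bins whose aged share was 0.5 of the young share or less, went the other way. They took 28.1 fragments per 10000 in the high-score cells, 39.5 in the other young HSCs and 16.5 in the aged HSCs, a ratio of 0.71 (0.69 to 0.73) that covered 49.3% of the distance. Both distances end at the aged library, whose ratio to the young library chose these bins, so their size partly follows from that choice. The score had used no lost bin. In the 44840 stable bins, whose aged share lay between 20% lower and 25% higher than the young share, the ratio of high-score to other young cells was 0.996. These bins held 8088 of each 10000 scaling fragments in the high-score cells and 8123 in the other young HSCs. The scaling thus keeps their ratio near 1, and it is no separate control.

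The shift was graded with the size of the change with age. The bins were divided into 10 classes by their ratio of the aged to the young library. In the class lost most, where the aged HSCs stood at 0.239 of the other young HSCs, the high-score cells stood at 0.592 of them. In the next 3 classes, with the aged HSCs at 0.433, 0.608 and 0.761, the high-score cells were at 0.724, 0.82 and 0.906. Above the stable class the aged HSCs were at 1.41, 1.79, 2.59 and 3.97, and the high-score cells at 1.15, 1.30, 1.60 and 1.93. In the class gained most, with the aged HSCs at 7.26, the high-score cells were at 2.43 (2.30 to 2.58). The order of the aged values follows from how the classes were made. The high-score cells had that order over the 10 classes and lay on the same side of 1 in each.

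**Figure D1:**
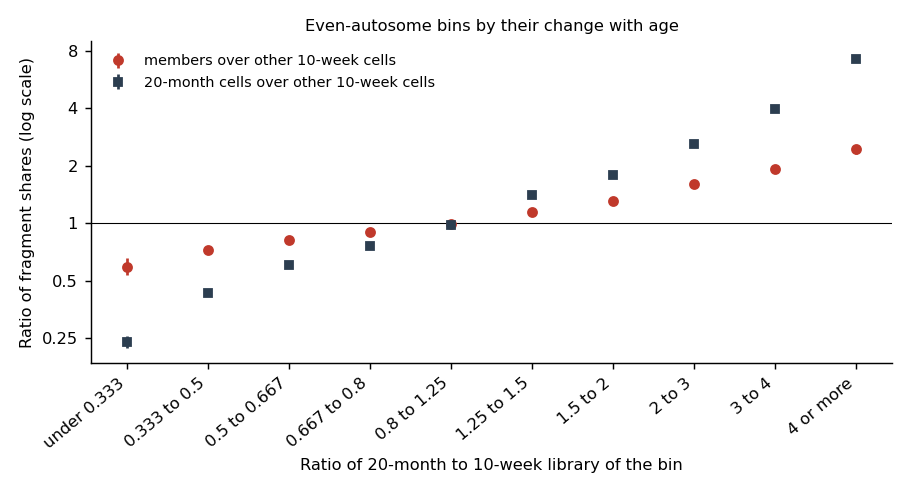
Even-autosome bins are grouped on the x axis by the ratio of the 20-month to the 10-week library, and the y axis (log scale) gives the ratio of fragment shares against the other young HSCs. Circles are the high-score young HSCs ("members") and squares the aged HSCs, with 95% counting intervals; circles run from 0.592 to 2.43 and lie nearer to 1 than the squares in each class.

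The shift was present on every even autosome. The ratio in gained bins ran from 1.58 on chromosome 4 to 1.84 on chromosome 10, and was above 1 on 9 of 9 chromosomes. The ratio in lost bins ran from 0.684 on chromosome 4 to 0.778 on chromosome 8, and was below 1 on 9 of 9. The share of all accessible fragments that each chromosome took differed between the young groups by far less, with ratios of 0.991 to 1.01.

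**Figure D2:**
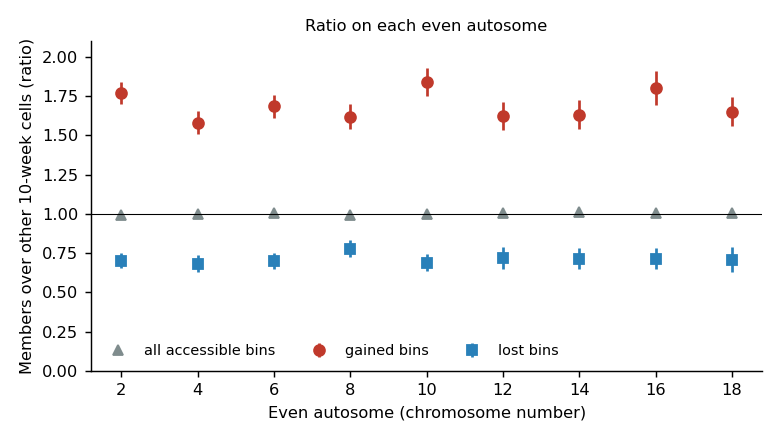
For each even autosome (x axis) the y axis gives the ratio of high-score ("members") to other young HSCs in gained bins (circles), lost bins (squares) and all accessible bins (triangles), with 95% counting intervals for the first and second. Gained bins lie between 1.58 and 1.84 and lost bins between 0.684 and 0.778 on all 9 chromosomes.

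The shift also ran through the whole young library and did not start at the limit of the highest 15%. When the 4887 young cells were ordered by their odd-autosome score and divided into 20 groups of 244 or 245 cells, the even-autosome gained bins took 109.9 fragments per 10000 in the highest group and 38.6 in the lowest. The highest 3 groups, which hold the high-score cells and 1 other young cell, had 109.9, 85.4 and 76.7, and the 4th had 72.0. The lost bins took 24.4 in the highest group and 44.2 in the lowest. Across the 4887 young cells the odd-autosome score and the even-autosome gained share had a Pearson correlation of 0.64 and a Spearman correlation of 0.56, as a description of cells that share 1 library. Within the 733 high-score cells the correlations were 0.55 and 0.46.

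**Figure D3:**
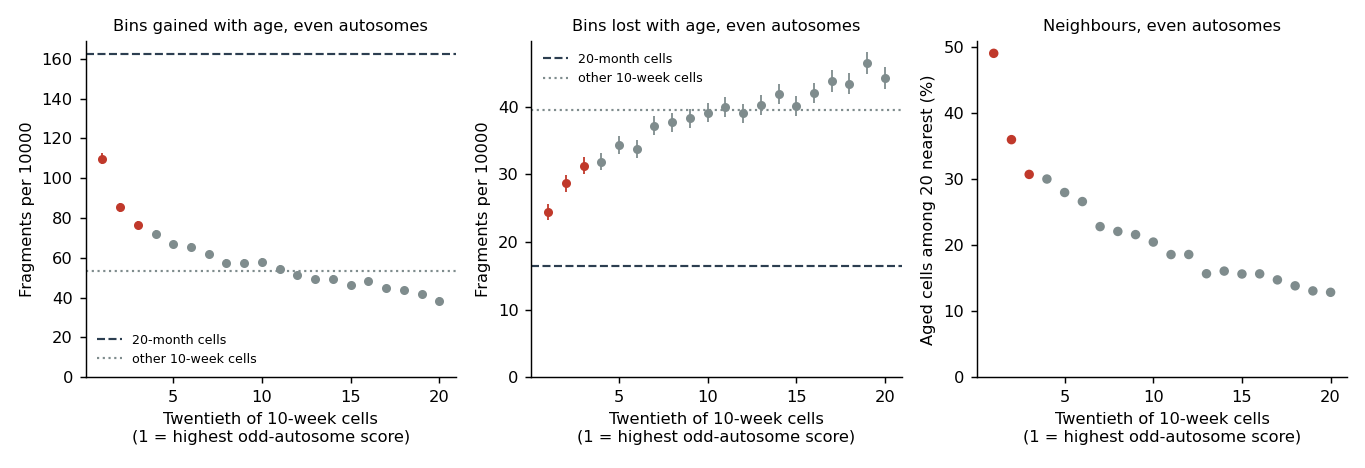
Young cells are divided into 20 groups by their odd-autosome score, with 1 the highest (x axis), and the first 3 are in red. In the gained and lost panels these hold the high-score cells and 1 other cell, and the neighbour panel divides only the cells deep enough to be thinned, so that its red groups match the high-score cells only roughly. The y axes give even-autosome fragments per 10000 in gained and in lost bins, with 95% counting intervals, and the mean percentage of aged cells among 20 nearest neighbours; dashed lines are aged cells (162.5 and 16.5) and dotted lines the other young HSCs (53.6 and 39.5).

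The 2 young groups were close to each other in depth and library quality. The median number of fragments per cell was 9512 in the high-score cells, 9955 in the other young HSCs and 11020 in the aged HSCs. In the same order, the peaks called by the authors held a median of 83.2%, 82.9% and 81.1% of a cell's fragments, and the medians of the share overlapping transcription start site (TSS) regions were 41.2%, 41.5% and 39.7%. The mitochondrial share of read pairs was 2.05% in the high-score cells, 1.81% in the other young HSCs and 0.859% in the aged HSCs, and fragments shorter than the DNA of 1 nucleosome made up 59.7%, 60.1% and 54.9%. On both of these measures the aged library stood apart from both young groups. The high-score cells lay between the other young and the aged HSCs in the TSS share and in short fragments. In fragments per cell, the share in peaks and the mitochondrial share they did not. Score and depth had a Spearman correlation of -0.021 over young cells, and within 10 groups of cells by depth the gained-bin ratio ran from 1.55 to 1.84. The share of young cells that had a high score was 18.4% in the shallowest group and 10.2% in the deepest. Cells marked as doublets were 17 of 733 (2.32%) against 194 of 4154 (4.67%), and barcodes that were also a cell of the aged library were 4 (0.546%) against 22 (0.53%).

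Most high-score cells took part in the shift. Each cell was thinned to 1500 fragments in accessible even-autosome bins, which left 674 high-score, 3919 other young and 3081 aged cells and removed 59, 235 and 324 shallower ones. The median number of fragments in gained bins was then 13 (quartiles 10 and 17) in the high-score cells, 8 (6 and 10) in the other young HSCs and 24 (19 and 30) in the aged HSCs. Of the high-score cells, 84.9% (81.9% to 87.5%) lay above the median of the other young HSCs, against 40.6% of the other young HSCs themselves and 99.0% of the aged cells. Without thinning the 3 shares were 91.4%, 50% and 99.7%. In lost bins the thinned medians were 4, 6 and 2, and 71.1% of the high-score cells lay below the median of the other young HSCs. The young groups overlapped in both measures.

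**Figure D4:**
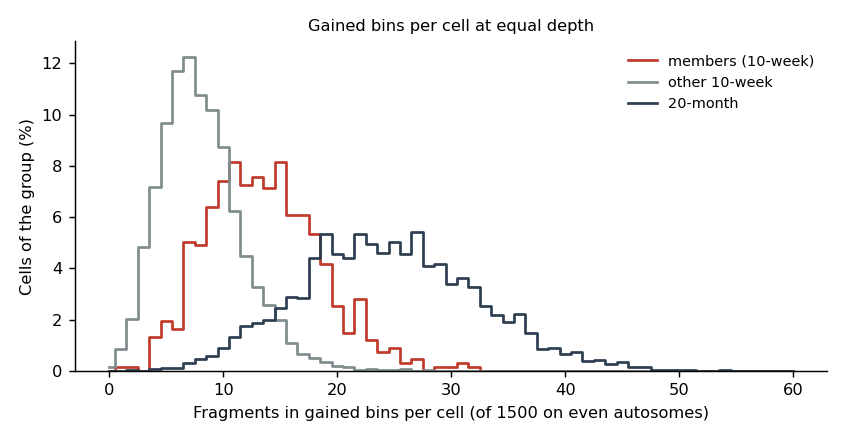
Distribution of the number of fragments in even-autosome gained bins per cell (x axis) after thinning to 1500 fragments, as the percentage of cells in each group (y axis). The high-score young HSCs ("members") have a median of 13, between 8 for the other young HSCs and 24 for the aged HSCs, and overlap both.

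The high-score cells also lay nearer to aged cells when the whole even-autosome profile was used. For this, cells thinned to the same depth were placed by latent semantic indexing of all accessible even-autosome bins, and the 20 nearest neighbours of each young cell were read. Aged cells made up a mean of 38.7% of the neighbours of high-score cells and 19.2% of those of the other young HSCs, with aged cells 40.1% of all cells searched. At least 50% of the neighbours were aged for 205 high-score cells (30.4%) and for 190 other young HSCs (4.85%). With the gained and lost bins left out of the profile, the mean shares were 44.5% and 24.7%. High-score cells were also nearer to each other. They made up 23.6% of the young neighbours of high-score cells and 10.4% of those of the other young HSCs, while being 14.7% of the young cells searched.

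The regions that the study had found to differ between young and aged HSCs by bulk ATAC-seq of separate samples (differentially accessible regions, DARs) moved in the same directions, by less. Of these lists only coordinates, direction and class were used. The 225 open DARs on even autosomes took 30.8 fragments per 10000 in the high-score cells, 24.0 in the other young HSCs and 51.8 in the aged HSCs, a ratio of 1.29 (1.252 to 1.32) between the young groups. The 39 closed DARs took 12.1, 13.9 and 9.64, a ratio of 0.87 (0.834 to 0.907). The high-score cells covered 24.7% of the distance from the other young to the aged HSCs at open DARs and 42.3% at closed DARs. Of the open DARs with at least 20 young fragments, 57 of 204 had a ratio below 1, and the median was 1.29. Of the closed DARs, 28 of 38 had a ratio below 1, and the median was 0.856. Of all 65225 accessible even-autosome bins with that many fragments, 32828 had a ratio below 1, and the median was 0.996.

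The study divided the open DARs into promoters, by location, and 3 enhancer classes, by histone marks, and all 4 classes had ratios above 1. The ratio was 1.34 (1.29 to 1.40) at 89 active enhancers, 1.33 (1.248 to 1.42) at 60 inactive enhancers and 1.42 (1.31 to 1.53) at 50 primed enhancers, which carry an enhancer mark but not the mark of activity. These intervals overlap. At 26 promoters it was 1.13 (1.07 to 1.19), below each of the enhancer classes, and the aged HSCs were also lowest there, with 1.46 over the other young HSCs against 2.34 or more at the enhancer classes. Gained bins that touched no DAR (1287 bins) had a ratio of 1.68 and those that touched one (174 bins) 1.71 (1.64 to 1.79).

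Distal bins carried more of the shift than promoters. Of the gained bins, 89.6% lay farther than 1 kb from the start of any annotated gene, against 72.8% of all accessible bins. Each gene was given 1 start, so a bin at an alternative start can count as distal. Their ratio of high-score to other young cells was 1.72 (1.69 to 1.75), and the ratio of the gained bins near a TSS was 1.44 (1.37 to 1.52). Over all accessible bins the ratio was 0.979 near a TSS and 1.02 elsewhere. Gained bins had a median GC content of 46.4% and all accessible bins 49.4%. In 5 groups of bins by GC content the ratio ran from 1.59 to 1.77 in gained bins and from 0.98 to 1.05 in stable bins.

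Single bins were read only where at least 200 young fragments fell in them, which few gained bins reach. Over all 20956 accessible even-autosome bins with that depth, 1.82% were higher in the high-score cells by 1.5-fold or more and 3.23% were lower by that fold. This floor counts the fragments of the high-score cells too, so a gained bin in which they were high passed more easily, and no count over the gained bins that passed is given. Lost bins were higher in the other young HSCs and passed the floor more easily through those cells, so no count over them is given either. At such counts the fold of a single bin carries a wide counting interval. Adjacent gained bins were joined into 1314 regions, of which 28 held at least 200 young fragments. The named regions come from these 28, to which the same limit applies. With a floor of 20 young fragments, which 1421 of the 1461 gained bins passed, 276 bins had a ratio below 1 and the median was 1.61. Of all 65225 accessible bins that passed it, 32828 were below 1, with a median of 0.996. Of 404 joined lost regions, 56 held at least 200 young fragments, and the limit given for lost bins applies to them. All 419 lost bins passed the floor of 20 young fragments, with 348 below 1 and a median of 0.688.

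The element near Gm9008 (intergenic, chr6:76387001-76388000), whose sequence opens the list above, had the highest ratio among the 28 regions. It held 95 fragments of high-score cells, 158 of the other young HSCs and 537 of aged HSCs, or 0.461, 0.129 and 0.498 per 10000, a ratio of 3.59 (2.75 to 4.65). At least 1 fragment was seen in 83 high-score cells (11.3%). The intron of Ank3 (ankyrin-G, a membrane scaffold protein), chr10:69611501-69612500, had 0.384, 0.124 and 0.62 per 10000, a ratio of 3.10 (2.33 to 4.09). The intergenic element near Spry2 (an inhibitor of receptor tyrosine kinase signalling), chr14:105767001-105767500, had 0.335, 0.12 and 0.312, a ratio of 2.80 (2.07 to 3.75).

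The element inside Clu, chr14:65970501-65971500, is centred 2517 bp from the annotated start of the gene, in an intron that also holds alternative first exons. It had 0.316 fragments per 10000 in the high-score cells, 0.118 in the other young HSCs and 0.32 in the aged HSCs, a ratio of 2.67 (1.96 to 3.61), and was seen in 8.46% of high-score and 3.35% of other young cells. An intronic element of Npas3 on chromosome 12 had a ratio of 2.42 (1.86 to 3.13), and one of Dok5 (an adaptor of receptor tyrosine kinases) on chromosome 2 had 2.27 (1.64 to 3.11). The 10 gained regions with the most young fragments, taken whatever their ratio, had ratios from 0.763 to 3.59. The lowest was an intergenic region on chromosome 6, chr6:3182501-3184000, with 0.131 fragments per 10000 in the high-score cells, 0.172 in the other young HSCs and 0.581 in the aged HSCs. Its ratio of 0.763 had an interval of 0.491 to 1.14, so that a shift toward the aged level was not detectable there. The region with the most young fragments, 5427 bp from the start of Egr1 (an immediate early transcription factor of HSC quiescence) on chromosome 18, had a ratio of 1.43 (1.19 to 1.72).

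Among the 56 lost regions with at least 200 young fragments, the lowest ratio was 0.298 (0.147 to 0.544), in Umps (pyrimidine synthesis). An intron of Emc3 had 0.342 (0.168 to 0.625) and an intron of Ncoa7 0.346 (0.209 to 0.542). The Emc3 element held 11 fragments of high-score cells, 192 of the other young HSCs and 10 of aged HSCs. The Rrp1 intron, whose sequence is shown above, held 14, 196 and 37, a ratio of 0.426 (0.229 to 0.732). The 2 lost regions with the most young fragments, in an intron of Adgra2 and in Fam131a, did not follow. Their ratios were 1.06 (0.879 to 1.27) and 1.08 (0.855 to 1.35). Regions that end both lists were picked for their ratio in these cells and show the size of the range only.

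Gene bodies moved little. Of 5417 protein-coding genes on even autosomes with at least 1000 young fragments, 0.757% (41 genes) were higher in the high-score cells by 25% or more and 1.03% (56 genes) were lower by 20% or more. The median ratio was 0.98, and 2146 genes were above 1. Scaling to all even-autosome fragments multiplied each ratio by 1.01 and turned the direction of none of the gene lists below. The summed ratio of all protein-coding genes, used below for comparison, went from 0.987 to 1.001. The highest gene was Dok5, with 1.87 fragments per 10000 in the high-score cells, 1.06 in the other young HSCs and 2.25 in the aged HSCs, a ratio of 1.77 (1.57 to 1.98). Tacr1 (a receptor of the neuropeptide substance P) followed with 1.54 and Fam19a1 with 1.51. Pcdh9 (a protocadherin) and Ntf3 (neurotrophin-3) each had 1.47, Tspan12 and Syt1 (a synaptic calcium sensor) 1.46, Cftr (a chloride channel) 1.45, Lpl (lipoprotein lipase) 1.40 and Clu 1.37. The aged HSCs stood at 1.38 (Lpl) to 2.16 (Syt1) over the other young HSCs at these genes. The genes were picked for their ratio, the floor counts the high-score cells' own fragments, and both ratios share the other young HSCs, so the values stand side by side and support nothing further.

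Among the lowest genes, Clcn1 (a muscle chloride channel) had 0.544 fragments per 10000 in the high-score cells, 0.773 in the other young HSCs and 0.745 in the aged HSCs, a ratio of 0.704 (0.573 to 0.857). Adgrg5, Hspb7 (a small heat shock protein), Tcea3 (an elongation factor) and Sh2d5 had ratios of 0.711, 0.713, 0.716 and 0.722. The others of the lowest 10 were Tmem173 (the innate immune adaptor STING), Lrr1, Slc35b4, Scn3a (a sodium channel) and Pkd1l2, from 0.728 to 0.738. The aged HSCs stood at 0.721 (Sh2d5) to 0.977 (Scn3a) over the other young HSCs at these genes, with the same limit. The lost element shared by Kif17 and Sh2d5 on chromosome 4 had a ratio of 0.415.

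Genes of HSC identity had a slightly higher summed accessibility in the high-score cells. The 10 HSC genes on even autosomes together took 35.3 fragments per 10000 in the high-score cells, 32.8 in the other young HSCs and 35.1 in the aged HSCs, a ratio of 1.08 (1.05 to 1.1), and 8 of 8 with at least 1000 young fragments were above 1 (median 1.08; over all genes tested the median was 0.98, and 39.6% were above 1). None of the 8 was higher by 25%. A summed ratio weights each gene by its fragments, and Prdm16 and Mllt3 held 2989 and 1923 of the 7263 in the high-score cells. Ctnnal1 had a ratio of 1.19 (1.07 to 1.32), Tek (the angiopoietin receptor of quiescent HSCs) 1.11 (0.961 to 1.27), Prdm16 (a self-renewal factor) 1.07 (1.03 to 1.11) and Mllt3 1.06 (1.01 to 1.11). Procr, the endothelial protein C receptor, was at 0.944 (0.747 to 1.18).

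Genes of the megakaryocyte and platelet lineage had a summed ratio of 1.09 (1.06 to 1.12), with 29.2, 26.7 and 28.9 fragments per 10000 in high-score, other young and aged cells. Of 9 with sufficient fragments, 7 were above 1, against 39.6% of all genes tested, and none was higher by 25%. Mmrn1 (multimerin of platelet granules) had 1.24 (1.11 to 1.37), Clec1b (the podoplanin receptor of platelets) 1.21 (1.06 to 1.39), Rab27b (granule release) 1.13 (1.04 to 1.23) and Vwf (von Willebrand factor) 1.12 (1.05 to 1.2). The other 2 were Thbs1 (thrombospondin) at 0.822 (0.688 to 0.976) and Gp5 (a platelet glycoprotein) at 0.961 (0.819 to 1.12), for which the aged HSCs were at 1.22 and 1.08 over the other young HSCs.

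Of the genes known from HSC aging, 7 of 11 with sufficient fragments were above 1, against 39.6% of all genes tested, and Clu alone was higher by 25%. Together the 14 on even autosomes took 43.0 fragments per 10000 in the high-score cells, 39.7 in the other young HSCs and 50.7 in the aged HSCs, a ratio of 1.08 (1.06 to 1.11). Runx1t1 (a corepressor) had 1.16 (1.07 to 1.253), Exoc6b 1.15 (1.09 to 1.21), Kcnma1 (a potassium channel) 1.1 (1.01 to 1.21) and Cd9 (a tetraspanin) 1.1 (1.01 to 1.2). Alcam, an adhesion molecule, was at 0.998 (0.923 to 1.08), although it was 1.22 in the aged HSCs. Jun, Fos and Egr1 also belong to this list and were below 1, with values given under the immediate early genes. Lists of genes higher and lower in aged HSCs by bulk RNA-seq were also taken from the study. The higher genes had a summed ratio of 1.02 (1.01 to 1.04), against 1.18 for the aged HSCs, and 39 of 73 were above 1, which compares with 39.6% of all genes tested. The lower genes had 0.975 (0.962 to 0.987) and 16 of 44 above 1. This is near all protein-coding genes, which together had 0.987 and of which 39.6% of those tested were above 1.

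Immediate early genes, which answer stress and growth signals within minutes, lay at the level of all genes. The AP-1 and immediate early list took 33.8 fragments per 10000 in the high-score cells, 34.6 in the other young HSCs and 35.3 in the aged HSCs, a ratio of 0.977 (0.952 to 1.0), where all protein-coding genes together had 0.987. Of 13 genes, 2 were above 1 and 5 above the median of all genes tested, and the median of the list was 0.979, against 0.98. Jun was at 0.973 (0.894 to 1.06), Fos at 0.979 (0.888 to 1.08) and Egr1 at 0.964 (0.885 to 1.05). The cell cycle list had 0.977 (0.936 to 1.02), with Cdkn1b (the p27 inhibitor) lowest at 0.818 (0.715 to 0.932).

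Markers of the other lineages lay near the level of all protein-coding genes, whose summed ratio was 0.987 and of which 39.6% of those tested were above 1. The erythroid list had a summed ratio of 0.975 (0.941 to 1.01), with 2 of 9 above 1 and 4 of 9 above the median of all genes, of which Aqp1 was highest at 1.22 (1.06 to 1.40). The myeloid list had 0.951 (0.906 to 0.998), with 0 of 4 above 1 and Irf8 (a monocyte and dendritic cell factor) at 0.846 (0.741 to 0.963). The lymphoid list had 1.02 (0.973 to 1.06), with 3 of 5 above 1 and Bcl11b at 1.19 (1.04 to 1.35). Summed levels per 10000 in high-score, other young and aged cells were 17.5, 17.9 and 17.9 for erythroid genes, 9.24, 9.72 and 9.41 for myeloid genes and 10.8, 10.6 and 10.7 for lymphoid genes. No gene of these lists was at 0, and the lowest were Ctsg with 2 and Cd8a with 3 fragments in high-score cells.

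**Figure D5:**
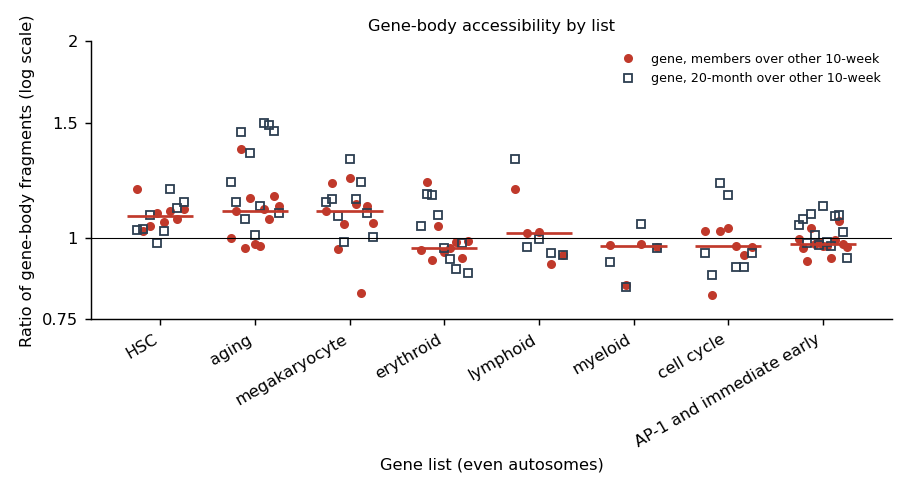
Each point is a gene of the list on the x axis, on even autosomes and with at least 1000 young fragments; the y axis (log scale) is the ratio of gene-body fragments against the other young HSCs for the high-score young HSCs ("members", circles, median as a bar) and the aged HSCs (squares). The bars of the HSC, aging and megakaryocyte lists lie at 1.08 to 1.1, those of the erythroid, myeloid, cell cycle and AP-1 lists at 0.965 to 0.979 and that of the lymphoid list at 1.02.

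Motif matches were counted within 200 bp at the centre of each of 47496 distal accessible bins on even autosomes, on both strands. Bins with an AP-1 match (TGANTCA) were 7.49% of distal bins and 16.4% of gained distal bins. The ratio of high-score to other young cells was 1.06 (1.05 to 1.07) in bins with it and 1.01 without. For the CNC motif (GCTGAGTCA, which contains an AP-1 match) the ratios were 1.08 and 1.02, and for the FOX motif (TGTTTAC) 1.07 and 1.02. Bins with a PU.1 match (GAGGAAGT), the factor of myeloid and B cell fate, were 4.87% of distal bins and 11.0% of lost distal bins, and had 0.953 (0.945 to 0.961), against 1.02 without.

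Inside the gained distal bins the order of motifs was another one. Gained bins with a GATA match (AGATAA), as in the Clu and Spry2 sequences above, had a ratio of 2.03 (1.93 to 2.13), against 1.68 for gained bins without. Those with a FOX match had 1.95 (1.75 to 2.17), with a CEBP match (TTGCNNAA) 1.87 (1.77 to 1.98), with a PU.1 match 1.85 (1.70 to 2.01) and with a STAT match (TTCNNNGAA) 1.81 (1.70 to 1.92). Gained bins with an AP-1 match had 1.65 (1.58 to 1.72) and with a CNC match 1.52 (1.37 to 1.68), while gained bins without these matches had 1.74 and 1.73. In the aged HSCs the AP-1 and GATA gained bins had 3.10 and 3.25 over the other young HSCs. GATA matches also marked the lost bins with the lowest ratio, 0.555 (0.499 to 0.615), among the motifs found in at least 20 lost bins. A match is a description of letters in a window and shows no binding.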

How the data were processed

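Single-cell ATAC-seq was measured in 1 library of young and 1 of aged HSCs. Alignment to mm10 and removal of duplicates were done by the authors in Cell Ranger ATAC. They deposited unique fragments and a table of fragment counts per barcode, with cells marked, and these counts are not normalized. The number of listed fragments equalled the deposited count in every cell used.

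Here a fragment was assigned to the 500-bp bin that holds its midpoint. Levels are fragments per 10000 in even-autosome bins with at least 100 fragments over both libraries. Intervals of ratios are exact binomial 95% intervals of the share of fragments. Those of levels per 10000 are exact Poisson intervals, and that of a share of cells is exact binomial over cells. All are for counting error only. Doublets were marked from loci covered by 3 or more fragments of 1 cell (Poisson tail, q under 0.01) and kept. GENCODE M21 gene models were used, with gene bodies extended by 2 kb upstream and promoters reaching 1 kb on either side of the TSS. Neighbours were found on components 2 to 30. A floor of 1000 young fragments was set for genes, 200 for bins and 20 for medians over regions. Ratios were tested on simulated data. The genes named are those of fixed lists, the 10 highest and 10 lowest genes, and the 10 gained regions with the most young fragments and the 10 with the highest ratio. The same choices for lost regions were added. 1 gene of the lists is not reported here by name. The members and the lists were chosen with earlier results of these data known. The remaining motifs searched were CRE TGACGTCA, RUNX TGTGGT, ETS ACTTCCGG, IRF GAAANNGAA, MEIS TGACAG, HOXA9 TGATTTAT, NFKB GGGNNTTCC, KLF GGGNGTGG, E2A CAGCTG, MYB CAACTG and CTCF CNAGNGGGC. From the study's tables only coordinates, classes, directions and gene names were used.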

Additional observations from a re-analysis of the deposited data

How the results depend on the processing

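No paired analysis was possible because each age has 1 library. Of 56 alternative values of the 5 results with a counting interval, 38 stayed within the interval of the reported value, 18 left it and 0 changed direction. Gained bins had a ratio of 1.41 with bins chosen at a ratio of 1.5, 1.90 at a ratio of 3, 1.78 for the highest 10% of cells, 1.63 for the highest 20% and 1.79 on fragments shorter than 1 nucleosome. Lost bins had 0.789 at a bin ratio of 1.5, 0.645 at 3, 0.679 with fragments counted by their ends, 0.679 for the highest 10%, 0.734 within 10 groups by the share in peaks, 0.754 with the score per fragment in accessible odd-autosome bins, and 0.68 with even and odd autosomes exchanged. Open DARs had 1.33 at a bin ratio of 1.5, 1.32 with ends counted and 1.36 for the highest 10%, and closed DARs 0.91 at a bin ratio of 3. The share of high-score cells above the median of the other young HSCs was 91.4% without thinning. When thinned to 3000 it was 95.4% of the 285 high-score cells deep enough, with 448 left out as too shallow. The difference in aged neighbours was 18.5 percentage points without thinning, against 19.5, and ran from 18.5 to 19.9 over its 4 alternatives. The cause of these moves was not tested. With doublets left out, gained bins had 1.70. Regions hold few fragments per cell, so a single element cannot be read cell by cell, and no value here can be set against the spread between animals.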
